A study of Mus musculus with 12 samples.

Results

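The genes described here are 35 genes of S phase and DNA replication, followed across mature B cells of mouse bone marrow. They were chosen by name, as E2F targets and genes of origin licensing, helicase activation, fork synthesis, deoxynucleotide supply, chromatin copying and the G1/S transition. No threshold on a measured value entered the rule, though earlier results of these data were known when it was set. All 35 were among the 27179 genes of the table of deposited read counts, and all 35 passed the filter on low counts that left 13592 genes for testing. The lowest count of any of them in a library was 10 reads.

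The series holds 12 libraries of polyadenylated RNA from B220 high, IgM positive, CD93 negative cells, in 4 groups of 3 biological replicates on the C57BL/6 background. The apoptosis-resistant group was Bak-/- BaxD/D, 10 weeks of age, and is labelled as deleted for both Bak and Bax, which encode the effectors that permeabilise the outer mitochondrial membrane during apoptosis. The apoptosis-sensitive group was Bak-/- Baxfl/fl, also 10 weeks of age, with a loxP-flanked Bax gene that was left in place. Both Bak-deficient groups therefore share the Bak deletion. The Cre driver behind the BaxD/D allele was not given in the sources used here. Old wild-type mice were 98, 99 and 100 weeks of age and young wild-type mice were 9, 10 and 11 weeks. Resistant and sensitive libraries with the same replicate number shared a collection date, and so did old and young wild-type libraries, while no date was common to Bak-deficient and wild-type mice. The first wild-type date was 24 March (the labels give its year as 2006, and the others' as 2016).

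Bax itself had 4.97 to 8.36 CPM in resistant libraries, against 55.7 to 100.1 CPM in sensitive ones (edgeR adjusted p = 0.0135), and Bak1 had 6.98 to 14.4 CPM in resistant and 6.17 to 12.5 CPM in sensitive libraries, against 24.7 to 47.9 CPM in the wild-type ones. Both genes were lower where the labels give a deletion, and reads of each remained. Total counts ran from 13474162 to 23539764 per library, and the 35 genes took 0.128% to 0.226% of them. The summed level of 10 mature B cell markers was 19740.0 to 20430.0 CPM in resistant, 21180.0 to 21650.0 CPM in sensitive, 16200.0 to 20020.0 CPM in old and 21620.0 to 23130.0 CPM in young wild-type libraries, where CPM is a gene's count scaled to the size of its library. Cd93, the protein of the negative gate, was detected at 9.52 to 36.1 CPM across the 12 libraries. Of the 35 genes, 11 share exonic bases with another gene in the annotation, and since the strand setting of the counting was not given, the origin of their reads is less certain. These are Orc1, Mcm7, Cdc45, Gins2, Pole, Rfc4, Fen1, Lig1, Tk1, Chaf1a and Ccne2. Gene positions are those of the mouse build GRCm38 (mm10), in the GENCODE vM21 annotation. Where a bulk level differs, fewer cells in S phase and less RNA per cell cannot be told apart.

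DNA replication is prepared in G1, when ORC, CDC6 and CDT1 load the MCM2 to MCM7 helicase onto origins. At the G1/S transition, cyclin E with CDK2 and the release of E2F factors from retinoblastoma proteins switch on the genes of S phase, and CDC45, GINS and MCM10 turn loaded MCM into a moving helicase. Polymerases alpha, delta and epsilon then copy the strands, delta and epsilon with the PCNA clamp, while thymidylate synthase and ribonucleotide reductase supply deoxynucleotides. Mature B cells of the marrow are mostly resting cells that have left the cycling precursor stages.

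The genes differed widely in level. Per kilobase of their longest principal transcript, the highest mean over the 12 libraries was that of Pold1, the catalytic subunit of polymerase delta, at 101.9 CPM per kb. Pcna, the sliding clamp, had 51.4 CPM per kb, and Cdt1, the licensing factor, 50.7 CPM per kb. The lowest were Gins2, a GINS subunit, at 0.780 CPM per kb, and Mcm10, a helicase activator, at 1.01 CPM per kb. The 6 subunits of the MCM2 to MCM7 ring lay close together. Within a library, the highest of them had between 1.33 and 2.26 times the per-kilobase level of the lowest.

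Promoters were examined for the letters bound by E2F, because several of the genes are known E2F targets. RefSeq windows of 300 bases (250 before and 50 after the annotated start, build GRCm38.p6) were on hand for 30 of the 35 genes. The other 5 were Mcm4, Gins1, Gins2, Pole and Ccne2. The letters searched on both strands were TTTCCCGC, TTTGGCGC, TTTCGCGC and TTTGCCGC. Since E2F targets were among the genes sought, an excess of these letters follows in part from the choice, and the shares are a description. At least one of the letter runs stood in 14 of the 30 genes (46.7%), against 2.60% of all 27025 genes with a window and 4.68% of the 10147 tested genes with one. The windows of licensing genes held them most often, in 7 of 8 genes, and those of nucleotide synthesis genes in 0 of 5. In the 200 bases before the start alone, 9 of 30 genes had a match (30.0%), against 3.30% of tested genes. In Mcm5 and Mcm6 a match on one strand overlapped a match on the other. The letters TTTGAA, a core of the element shared by many G2 and mitosis genes, stood in 5 of the 30 genes (16.7%), against 14.6% of tested genes and 20.2% of all genes with a window. They stood in 29 of 40 genes (72.5%) of a list of G2 and mitosis genes. A match is a run of letters and no measure of binding.

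Some windows are printed so that the letters can be read beside the values given further on. The 6 windows printed here are those of the genes with the smallest p between resistant and sensitive cells among genes with a match. They are Uhrf1 (chr17:56304063-56304362 on the plus strand), E2f2 (chr4:136172024-136172323 on the plus strand), Cdc6 (chr11:98907901-98908200 on the plus strand), Cdt1 (chr8:122567765-122568064 on the plus strand), Lig1 (chr7:13278576-13278875 on the plus strand) and Mcm7 (chr5:138171834-138172133 on the minus strand), each 5′ to 3′ along the gene. Capitals mark the E2F letters, which read as GCGGGAAA or GCGCGAAA where the match is on the other strand.
Uhrf1: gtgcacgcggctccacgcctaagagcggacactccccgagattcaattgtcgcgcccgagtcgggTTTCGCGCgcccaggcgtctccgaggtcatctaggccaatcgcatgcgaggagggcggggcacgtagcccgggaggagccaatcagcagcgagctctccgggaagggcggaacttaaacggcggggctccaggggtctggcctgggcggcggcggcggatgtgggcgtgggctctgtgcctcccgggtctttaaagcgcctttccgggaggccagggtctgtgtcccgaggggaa
E2f2: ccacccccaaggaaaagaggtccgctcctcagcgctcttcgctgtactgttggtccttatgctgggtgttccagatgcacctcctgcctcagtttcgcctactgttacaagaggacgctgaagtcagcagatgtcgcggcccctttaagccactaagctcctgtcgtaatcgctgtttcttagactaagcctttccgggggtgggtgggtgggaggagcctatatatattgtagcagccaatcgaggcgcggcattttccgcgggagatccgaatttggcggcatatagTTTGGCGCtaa
Cdc6: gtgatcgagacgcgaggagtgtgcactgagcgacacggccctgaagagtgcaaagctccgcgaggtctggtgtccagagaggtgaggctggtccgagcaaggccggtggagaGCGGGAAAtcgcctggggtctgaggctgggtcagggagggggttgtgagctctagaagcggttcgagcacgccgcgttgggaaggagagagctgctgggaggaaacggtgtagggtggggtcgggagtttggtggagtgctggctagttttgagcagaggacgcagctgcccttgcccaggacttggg
Cdt1: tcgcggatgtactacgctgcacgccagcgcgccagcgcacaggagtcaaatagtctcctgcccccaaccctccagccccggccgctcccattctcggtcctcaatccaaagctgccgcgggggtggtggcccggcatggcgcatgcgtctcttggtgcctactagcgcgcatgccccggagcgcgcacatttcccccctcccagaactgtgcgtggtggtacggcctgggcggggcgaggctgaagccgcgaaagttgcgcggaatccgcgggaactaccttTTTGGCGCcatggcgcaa
Lig1: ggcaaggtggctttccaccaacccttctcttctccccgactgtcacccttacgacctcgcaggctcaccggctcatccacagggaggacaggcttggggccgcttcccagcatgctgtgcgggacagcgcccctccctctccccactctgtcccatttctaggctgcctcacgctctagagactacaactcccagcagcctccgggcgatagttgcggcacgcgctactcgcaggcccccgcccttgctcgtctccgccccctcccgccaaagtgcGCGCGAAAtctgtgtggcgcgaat
Mcm7: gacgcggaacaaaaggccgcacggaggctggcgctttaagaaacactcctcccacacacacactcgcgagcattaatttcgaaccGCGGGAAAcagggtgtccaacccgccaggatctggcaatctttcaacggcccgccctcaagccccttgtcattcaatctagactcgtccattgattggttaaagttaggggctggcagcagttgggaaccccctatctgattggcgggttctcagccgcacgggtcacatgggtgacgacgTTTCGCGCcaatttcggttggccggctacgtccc
Uhrf1, E2f2 and Mcm7 had 2 windows each and Lig1 had 3, around different annotated starts, and 1 with a match is printed. The Uhrf1 window at chr17:56303087-56303386 held no match. Relative to the annotated start of the printed window, the match began 185 bases before in Uhrf1 and 138 before in Cdc6. In E2f2, Cdt1 and Lig1 it lay after the start, at bases 40, 33 and 27. Mcm7 had 2 matches, 165 bases before and 17 bases after the start. E2f1, Tyms, Rrm2, Mcm10, Cdc45, Chaf1a, Chaf1b and Tk1 had a smaller p between resistant and sensitive cells than Lig1, but no match. The unadjusted p in edgeR by group was 0.0796 for Lig1 and 0.2 for Mcm7.

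The comparison of resistant with sensitive cells asks what differs when BAX is lost on a Bak-deficient background. Among replication genes, Uhrf1, Mcm10, Rrm2, Tyms, E2f1 and Cdc6 had the fold changes furthest below 0, while Rfc3 was at -0.01. The fold change was below 0 for 35 of 35 genes, with 52.7% of all genes below 0, and their median was -0.51 on the log2 scale, against -0.02 for all genes. No gene of the 35 passed the threshold (adjusted p under 0.05) in edgeR's quasi-likelihood test by group, in which 0.0441% of all genes passed. At an unadjusted p under 0.05, 12 of the 35 were lower, against 2.97% of all genes. With the shared collection date as a block, 12 of the 35 fell and 0 rose, against 1.97% of all genes that fell and 1.43% that rose. DESeq2, without the block, called 5 of the 35 lower (Uhrf1, E2f1, E2f2, Tyms and Rrm2), against 0.499% of all genes. The median was -0.21 without sensitive replicate 3, the library with the highest summed level of the 35 genes, which had 2194 CPM.

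The genes that fell with the date block were Uhrf1, E2f1, E2f2, Tyms, Rrm2, Rrm1, Tk1, Mcm10, Cdc45, Cdc6, Chaf1a and Chaf1b. Leaving out 1 date pair at a time, an alternative added after the data were seen, left 6 calls without pair 1, 8 without pair 2 and 6 without pair 3. Uhrf1, E2f1, E2f2, Mcm10, Rrm2 and Chaf1a were among the calls each time. The share of all genes called lower in those fits was 0.617%, 0.815% and 0.752%. In 32 of the 35 genes the resistant library was lower than the sensitive library of the same date on all 3 dates, as in 23.2% of all genes. In 14 genes every resistant library was below every sensitive library, as in 8.31% of all genes.

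**Figure D1:**
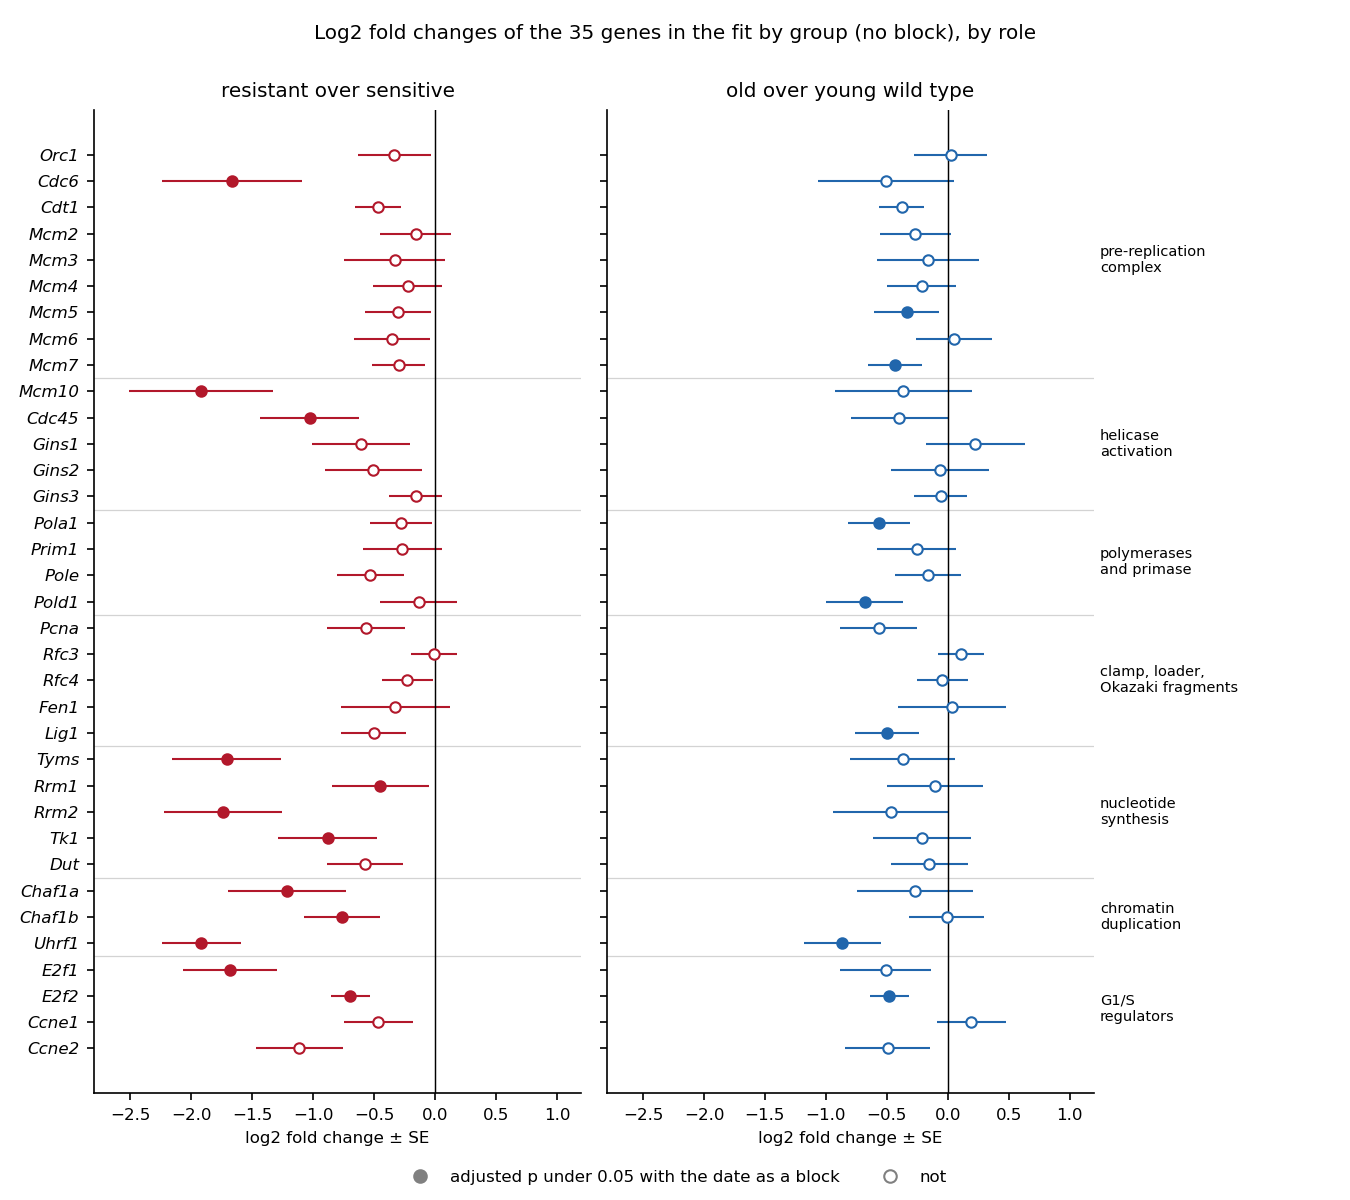
Log2 fold changes (x axis, ± SE) of the 35 genes, grouped by role, for resistant over sensitive (left) and old over young wild type (right), from the fit by group without the block. Filled points passed an adjusted p of 0.05 in the fit with collection date as a block, 12 on the left and 7 on the right, and all of these lie below 0.

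Among the regulators of the G1/S transition, both activating E2F factors fell with the block. E2f1 (Entrez gene 13555, chromosome 2, 154559400 to 154569892), which switches on S phase genes, had 4.90, 3.15 and 7.17 CPM in resistant cells, against 13.9, 9.88 and 25.2 CPM in sensitive cells. The groups did not overlap, and replicate 3 was the highest of each group. The log2 fold change was -1.68 ± 0.39, with an adjusted p of 0.238 in edgeR by group, 0.000808 in edgeR with the date block and 0.00634 in DESeq2. E2f2 (Entrez gene 242705, chromosome 4, 136172274 to 136196057), its close relative, had 93.3, 96.7 and 109 CPM in resistant cells, against 162, 136 and 187 CPM in sensitive cells. These groups were apart as well, and the resistant libraries lay closer together than the sensitive ones. On the log2 scale E2f2 differed by -0.69 ± 0.16, with an adjusted p of 0.244 in edgeR by group, 0.00318 with the date block and 0.014 in DESeq2. Per kilobase, E2f2 stood 8.77 to 17.7 times above E2f1 in resistant cells, against 4.28 to 7.91 times in sensitive cells.

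The cyclins E, which activate CDK2 at the G1/S boundary, did not pass either edgeR test. Ccne1 (Entrez gene 12447, chromosome 7, 38097984 to 38107490) had 17.1, 17.5 and 15.3 CPM in resistant cells, against 27.4, 18.2 and 23.4 CPM in sensitive cells. The lowest sensitive library was just above the highest resistant one. Its log2 fold change was -0.47 ± 0.28 (edgeR adjusted p = 1, and 0.11 with the block). Ccne2 had 1.86, 1.94 and 2.25 CPM in resistant cells, against 5.70, 3.94 and 3.51 CPM in sensitive cells, with a log2 fold change of -1.11 ± 0.35 (edgeR adjusted p = 0.531, and 0.0707 with the block). Its groups were also apart, and all 3 resistant libraries lay close together.

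Among the 9 licensing genes, 1 fell with the block. Cdc6, the ATPase that loads MCM together with ORC, had 1.72, 1.15 and 3.87 CPM in resistant cells, against 8.23, 4.06 and 9.30 CPM in sensitive cells. The highest resistant library fell just short of the lowest sensitive one. Its log2 fold change was -1.66 ± 0.58 (edgeR adjusted p = 0.647, and 0.017 with the block). Cdt1, its partner in loading, had 94.9, 91.6 and 105 CPM in resistant cells, against 119, 134 and 152 CPM in sensitive cells. The groups were apart, but the block left it at an adjusted p of 0.141 in edgeR, with a log2 fold change of -0.47. The 6 MCM ring genes had log2 fold changes between -0.16 and -0.35, and none passed. Mcm5 (Entrez gene 17218, chromosome 8, 75109468 to 75128439) had 67.6, 59.3 and 79.2 CPM in resistant cells, against 83.8, 67.7 and 103 CPM in sensitive cells. Its groups overlapped, and its log2 fold change was -0.30 ± 0.27 (edgeR adjusted p = 1, and 0.209 with the block), and -0.13 without sensitive replicate 3. Orc1, the largest subunit of the origin recognition complex, had 2.74 ± 0.547 CPM in resistant cells and 3.46 ± 0.505 CPM in sensitive cells (SD, n = 3 each), with a log2 fold change of -0.33 ± 0.30.

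Of the 5 genes of helicase activation, 2 fell with the block. Mcm10 (Entrez gene 70024, chromosome 2, 4990724 to 5012791) had 0.690, 1.09 and 3.63 CPM in resistant cells, against 6.94, 3.70 and 10.3 CPM in sensitive cells. The first 2 resistant libraries, with 10 and 18 reads, were far below every other library of the series, and resistant replicate 3 stayed just below sensitive replicate 2. This gave Mcm10 a log2 fold change of -1.92 ± 0.59, with an adjusted p of 0.488 in edgeR by group, 0.00681 with the date block and 0.0792 in DESeq2. Without resistant replicate 3 it was -2.95. Cdc45, part of the active helicase, had 4.00, 3.70 and 8.65 CPM in resistant cells, against 10.3, 7.88 and 15.3 CPM in sensitive cells. Its groups overlapped, and its log2 fold change was -1.03 ± 0.41 (edgeR adjusted p = 0.849, and 0.0155 with the block). The GINS subunits, which complete that helicase, did not pass, with log2 fold changes of -0.61 ± 0.41 for Gins1, -0.51 ± 0.40 for Gins2 and -0.16 ± 0.22 for Gins3.

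None of the polymerase and primase genes passed, and their log2 fold changes were -0.28 ± 0.25 for Pola1, -0.27 ± 0.32 for Prim1, -0.53 ± 0.27 for Pole and -0.14 ± 0.32 for Pold1. Pola1 and Prim1 belong to the complex that makes primers, while Pole and Pold1 are the catalytic subunits of the leading and lagging strand polymerases. None of the 5 genes of the clamp, the clamp loader and Okazaki fragment joining passed either. Pcna (Entrez gene 18538, chromosome 2, 132249286 to 132253180) had 60.6, 60.1 and 89.8 CPM in resistant cells, against 83.4, 67.2 and 161 CPM in sensitive cells. Sensitive replicate 3 was high and the other libraries overlapped. The log2 fold change of Pcna was -0.57 ± 0.32 (edgeR adjusted p = 1, and 0.257 with the block), and -0.09 without sensitive replicate 3. Rfc3, a clamp loader subunit, had 25.9 ± 3.02 CPM in resistant cells and 25.98 ± 4.82 CPM in sensitive cells (SD, n = 3 each). Lig1, the ligase that joins Okazaki fragments, had a log2 fold change of -0.51 ± 0.26, Fen1, the flap nuclease, one of -0.33 ± 0.45, and Rfc4, another loader subunit, one of -0.23 ± 0.21.

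Of the 5 genes of deoxynucleotide synthesis, 4 fell with the block. Tyms (Entrez gene 22171, chromosome 5, 30038546 to 30073645), the enzyme that makes thymidylate, had 1.79, 1.51 and 2.10 CPM in resistant cells, against 6.82, 3.00 and 7.95 CPM in sensitive cells. Its groups were apart, and the sensitive libraries were spread widely. Tyms had a log2 fold change of -1.71 ± 0.45, with an adjusted p of 0.35 in edgeR by group, 0.0166 with the date block and 0.0336 in DESeq2. Leaving out 1 date pair took the blocked adjusted p of Tyms in edgeR up to 0.165.

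Rrm2 (Entrez gene 20135, chromosome 12, 24708254 to 24714146), the S phase subunit of ribonucleotide reductase, had 8.41, 7.94 and 18.8 CPM in resistant cells, against 46.98, 21.7 and 49.1 CPM in sensitive cells. Resistant replicate 3 came near sensitive replicate 2, and the groups did not overlap. Rrm2 had a log2 fold change of -1.74 ± 0.48, with an adjusted p of 0.397 in edgeR by group, 0.00861 with the date block and 0.0403 in DESeq2. Its partner Rrm1, the large subunit, had 72.1, 66.8 and 72.97 CPM in resistant cells, against 96.7, 80.4 and 112 CPM in sensitive cells. The groups were apart by a smaller margin (log2 fold change -0.45 ± 0.40, edgeR adjusted p = 1, and 0.0384 with the block). Per kilobase, Rrm1 was 2.13 to 4.70 times as high as Rrm2 in resistant cells, against 1.13 to 2.03 times in sensitive cells.

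Tk1, the salvage enzyme thymidine kinase, had 15.7, 19.4 and 13.8 CPM in resistant cells, against 29.6, 26.8 and 33.6 CPM in sensitive cells. Every resistant library was below every sensitive one (log2 fold change -0.88 ± 0.41, edgeR adjusted p = 1, and 0.0124 with the block). Dut, which clears dUTP, did not pass, at -0.57 ± 0.32 (edgeR adjusted p = 0.0684 with the block).

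All 3 genes of chromatin duplication fell with the block. Uhrf1 (Entrez gene 18140, chromosome 17, 56303337 to 56323486), which brings the maintenance methyltransferase DNMT1 to newly copied DNA, had 9.86, 8.67 and 16.1 CPM in resistant cells, against 47.4, 31.2 and 52.6 CPM in sensitive cells. The highest resistant library stood well below the lowest sensitive one. The log2 fold change was -1.92 ± 0.33, with an adjusted p of 0.1 in edgeR by group, 0.000199 with the date block and 2.68e-05 in DESeq2.

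Chaf1a and Chaf1b encode subunits of CAF-1, which places histones on new DNA. Chaf1a had 4.48, 4.06 and 13.6 CPM in resistant cells, against 14.7, 9.58 and 27.4 CPM in sensitive cells, and shares 4648 exonic bases with Ubxn6 on the opposite strand. Resistant replicate 3 overlapped the sensitive libraries (log2 fold change -1.22 ± 0.48, edgeR adjusted p = 0.852, and 0.00356 with the block). Chaf1b had 5.52, 3.88 and 7.60 CPM in resistant cells, against 8.91, 6.41 and 13.6 CPM in sensitive cells, with a log2 fold change of -0.76 ± 0.31 (edgeR adjusted p = 0.916, and 0.0427 with the block). Its groups overlapped too, again through resistant replicate 3.

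**Figure D2:**
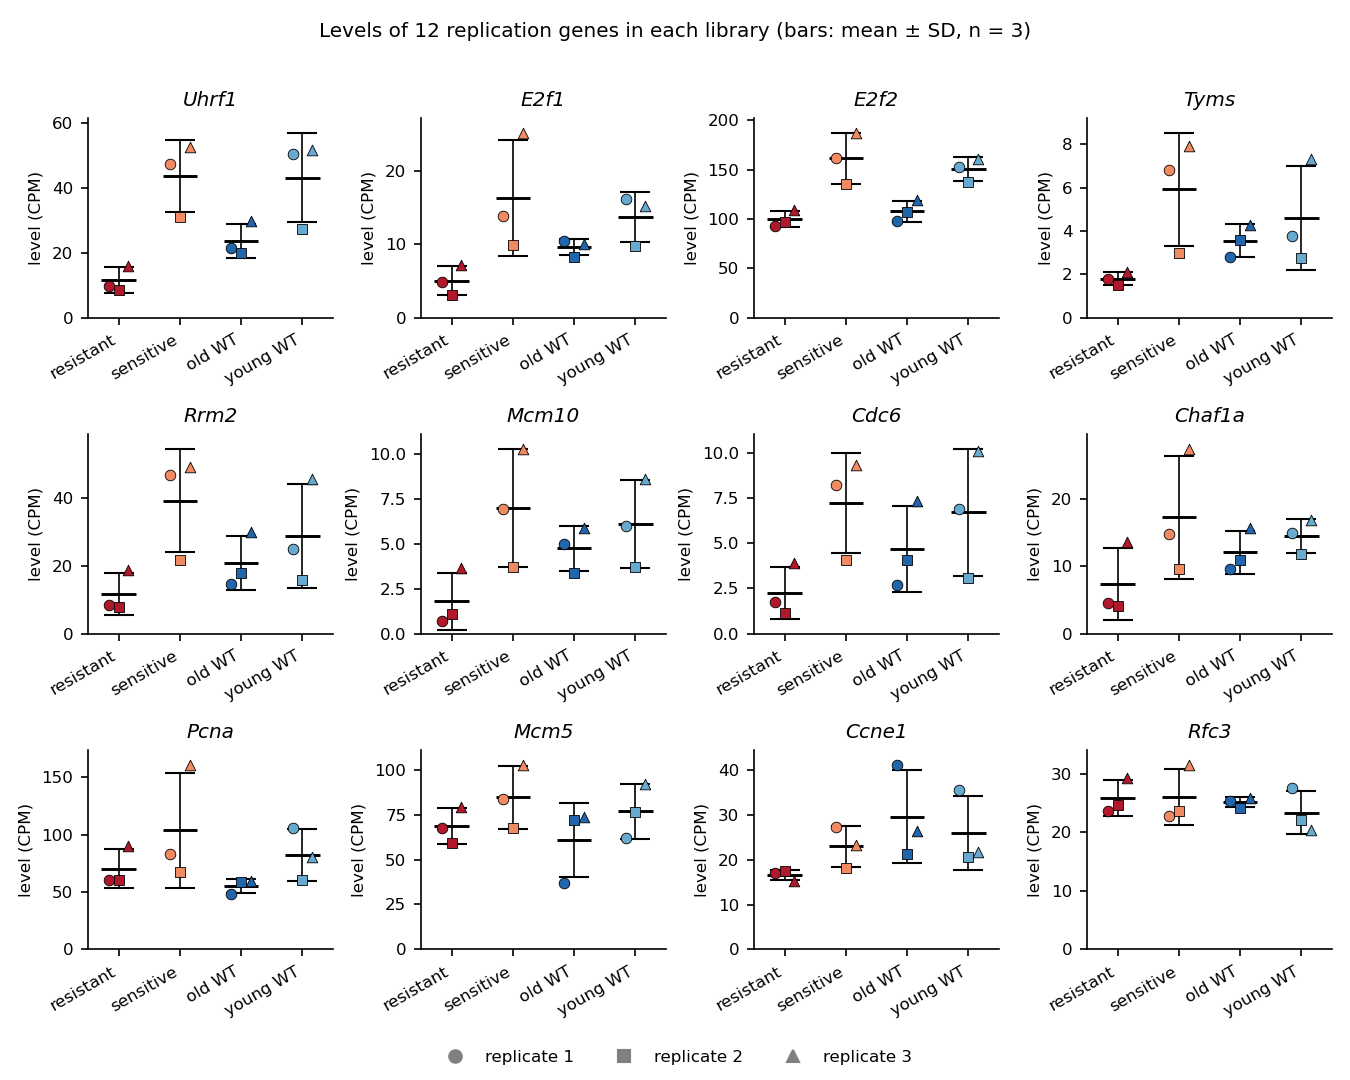
Levels (CPM, y axis from 0) of 12 of the genes in each library, for resistant, sensitive, old wild-type and young wild-type cells. Symbols mark the replicate, and bars the mean ± SD of 3 libraries. The same symbol means the same collection date between resistant and sensitive or between old and young cells, but not between Bak-deficient and wild-type mice. The group means of Uhrf1, E2f1, E2f2, Tyms, Rrm2, Mcm10 and Cdc6 are lowest in resistant cells. Every resistant library is below all other libraries in Uhrf1, E2f1 and Tyms. In E2f2, Rrm2, Mcm10 and Cdc6 resistant libraries overlap old wild-type ones, and Mcm5 and Rfc3 overlap among the groups.

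By role, the median log2 fold change between resistant and sensitive cells was -1.22 for chromatin duplication, -0.90 for the G1/S regulators, -0.88 for nucleotide synthesis and -0.61 for helicase activation. It was -0.33 for licensing, -0.33 for the clamp, loader and Okazaki fragment genes and -0.28 for polymerases and primase. These medians are descriptions, and no difference between roles was tested.

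Other cell cycle genes were read from lists that did not include the 35, and they show what moved beside the replication genes. Of 49 genes of G2 and mitosis, 0 were called by edgeR by group, 33 were lower at an unadjusted p under 0.05, 7 were called lower by DESeq2, and 31 fell with the date block, against 1.97% of all genes. Their median was -1.21 on the log2 scale. Anln, a cytokinesis scaffold, had 2.13 ± 1.18 CPM in resistant cells and 8.46 ± 3.31 CPM in sensitive cells (SD, n = 3 each), with a blocked log2 fold change of -2.01 (edgeR adjusted p = 0.00371). Prc1, a spindle midzone protein, had a blocked log2 fold change of -1.46 (edgeR adjusted p = 0.00855). Bub1, a spindle checkpoint kinase, had one of -2.43 (edgeR adjusted p = 0.00134).

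Of 44 other replication genes, 2 fell with the block (median -0.17), among them Clspn, a fork checkpoint mediator, with a blocked log2 fold change of -1.90 (edgeR adjusted p = 0.00439), and Gmnn, the inhibitor of CDT1, with -0.82 (edgeR adjusted p = 0.0242). Of 26 other nucleotide synthesis genes, 0 passed in edgeR with the block, 0 by group, 0 at an unadjusted p under 0.05 by group and 0 in DESeq2. Of 22 genes of the replication checkpoint and fork repair, 5 fell with the block, with Rad54l, a recombination motor, at -1.77 (edgeR adjusted p = 0.00318). Of 14 quiescence genes, 1 fell with the block, the antiproliferative gene Tob1, at -0.70 (edgeR adjusted p = 0.0115).

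Among 30 tested E2F, RB and G1/S regulators, 6 fell and 1 rose with the block. Ccnd2, a D-type cyclin that acts ahead of E2F, had 32.5, 25.8 and 28.00 CPM in resistant cells, against 136, 112.6 and 119 CPM in sensitive cells. It was the only gene of these lists that passed edgeR by group, with a log2 fold change of -2.09 (adjusted p = 0.0449). Cdkn1a, the CDK inhibitor p21, had 20.4, 21.6 and 23.5 CPM in resistant cells, against 3.16, 4.41 and 6.78 CPM in sensitive cells. It rose with the block, by 2.24 on the log2 scale (edgeR adjusted p = 0.0022), and had an adjusted p of 0.0843 by group. E2f8, a repressor of the E2F family, fell with the block, at -2.17 (edgeR adjusted p = 0.00861).

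**Figure D3:**
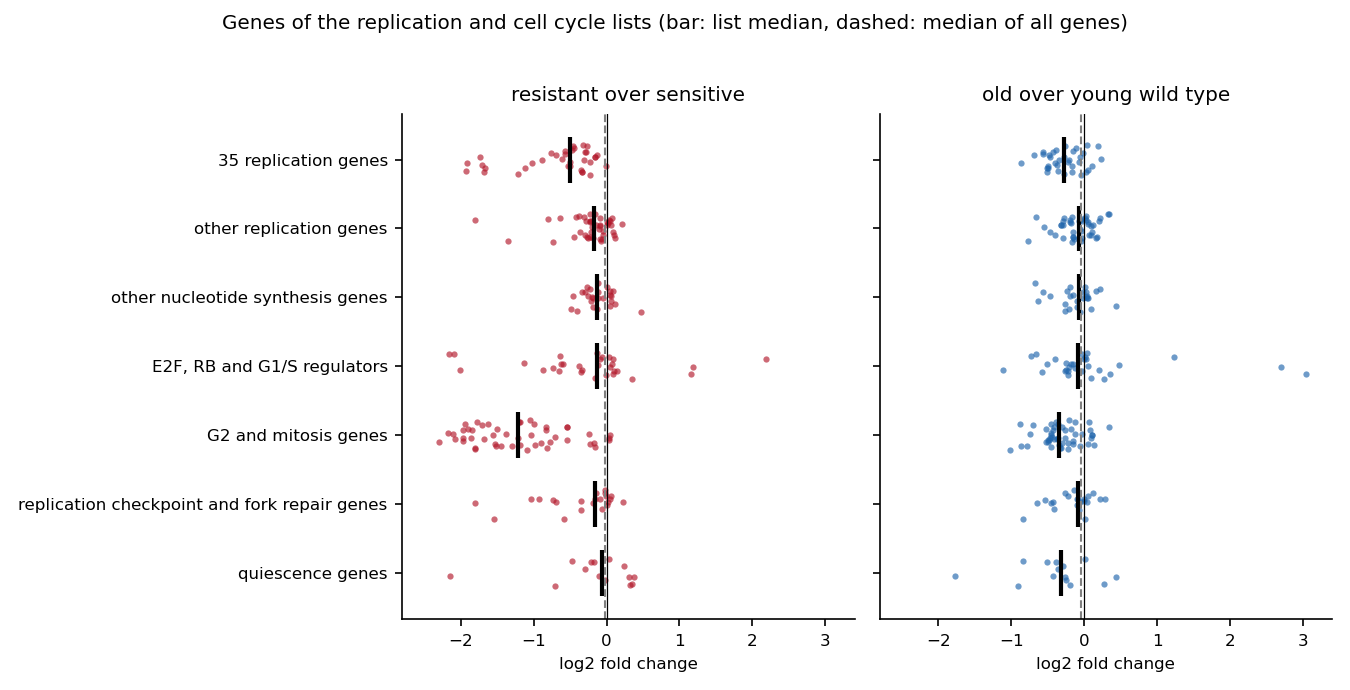
Log2 fold changes of single genes (points; fit by group without the block) in the 35 replication genes and 6 further lists, for resistant over sensitive (left) and old over young wild type (right), with list medians as bars and the median of all genes dashed. On the left the G2 and mitosis list has the lowest median, -1.21, and the 35 genes have -0.51.

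Markers of other cells also differed between these groups, and their part in the differences was not tested. Summed granulocyte markers (10 of 10 in the table) had 29.7 to 69.4 CPM in resistant cells, against 78.1 to 743 CPM in sensitive cells, and all 10 had fold changes below 0. Of the 10, 0 passed in edgeR with or without the block, 3 were lower at an unadjusted p under 0.05 by group, and DESeq2 called 0. In sensitive replicates 1, 2 and 3 the granulocyte sums were 743, 78.1 and 140 CPM. The sums of the 35 genes there were 1780, 1628 and 2194 CPM, and replicate 2 was the lowest in both. Summed erythroid markers (9 of 10 in the table) had 177 to 229.5 CPM in resistant cells, against 152 to 395 CPM in sensitive cells. Of the 9, 8 had fold changes below 0 (median -1.73 on the log2 scale), and 0 passed in edgeR, with or without the block, or in DESeq2. Progenitor markers (4 of 4) had 20.4 to 27.5 CPM in resistant cells, against 44.5 to 89.1 CPM in sensitive cells, and these sums did not overlap. Of the 4, 3 had fold changes below 0, 1 fell with the block and 0 passed in edgeR by group or in DESeq2. Precursor B cell markers (9 of 9) had 109 to 132 CPM in resistant cells, against 103 to 148 CPM in sensitive cells, which overlapped. Here too 8 of the 9 had fold changes below 0 (median -0.44), and 0 passed in edgeR, with or without the block, or in DESeq2. Cd93 had 21.1, 16.1 and 16.8 CPM in resistant cells, against 32.1, 31.3 and 33.1 CPM in sensitive cells, and fell with the block (log2 fold change -0.85, edgeR adjusted p = 0.00851).

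Germinal centre markers (6 of 6), the genes of B cells that divide in response to antigen, had a summed level of 154 to 224 CPM in resistant cells, against 74.6 to 144 CPM in sensitive cells. The germinal centre sums did not overlap, though 0 of the 6 genes passed in edgeR by group or with the block, 4 were higher at an unadjusted p under 0.05 by group and DESeq2 called 1. Plasma cell markers (7 of 7) had 518 to 604 CPM in resistant cells, against 515 to 812 CPM in sensitive cells. Monocyte and macrophage markers (9 of 9) had 50.2 to 71.01 CPM in resistant cells, against 44.6 to 146 CPM in sensitive cells. Of these 9, 5 had fold changes above 0 and 4 below, and 1 rose with the block. T cell markers (7 of 7) had 39.2 to 51.1 CPM in resistant cells, against 39.3 to 43.6 CPM in sensitive cells. NK cell markers (4 of 4) had 0.303 to 0.812 CPM in resistant cells, against 1.18 to 1.31 CPM in sensitive cells. Stroma markers (4 of 4) had 2.48 to 6.07 CPM in resistant cells, against 2.34 to 9.87 CPM in sensitive cells. The NK cell sums were lower in every resistant library, and the other 4 sums overlapped. Of all marker lists, no gene was at 0 in every library.

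Age was addressed by setting old against young wild-type cells. Most had fold changes below 0, with E2f2, Uhrf1 and Pola1 at the smallest p. The fold change was below 0 for 29 of 35 genes, with 54.3% of all genes below 0, and the median was -0.27 on the log2 scale, against -0.04 for all genes. In edgeR by group 0 of the 35 passed, against 2.01% of all genes, and 3 were lower at an unadjusted p under 0.05 (Pola1, Uhrf1 and E2f2), against 3.52% of all genes. DESeq2 called 0, against 4.66% of all genes. With the date block 7 fell and 0 rose, against 7.03% of all genes that fell and 7.89% that rose. The median was -0.05 without young replicate 3 and -0.42 without old replicate 3 or young replicate 2.

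The 7 genes that fell with the block were Uhrf1, E2f2, Pola1, Pold1, Mcm5, Mcm7 and Lig1. Without date pair 1, 3 were still called (Pola1, Uhrf1 and E2f2), as were 2.35% of all genes. Without pair 2, 7 genes were called, with Mcm2 and Pcna in place of Pold1 and Lig1, as were 4.22% of all genes. Without pair 3, 6 were called, without Mcm5, as were 6.23% of all genes. Old libraries were below the young libraries of the same date on all 3 dates for 16 of the 35 genes, as for 25.2% of all genes. In 4 genes (Cdt1, Mcm7, Pcna and E2f2) every old library was below every young one, as for 6.96% of all genes.

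Uhrf1 had 21.4, 20.01 and 29.7 CPM in old cells, against 50.5, 27.4 and 51.8 CPM in young cells. Young replicate 2 lay below old replicate 3, but each old library was below the young library of its date. The log2 fold change was -0.86 ± 0.32 (edgeR adjusted p = 0.264, and 0.00533 with the block). E2f2 had 97.7, 107 and 119 CPM in old cells, against 153, 137 and 161 CPM in young cells. Every old library was lower, with a log2 fold change of -0.48 ± 0.16 (edgeR adjusted p = 0.212, and 0.00719 with the block). E2f1 had 10.5, 8.34 and 10.1 CPM in old cells, against 16.2, 9.76 and 15.2 CPM in young cells. Its groups overlapped in young replicate 2, and it did not pass (log2 fold change -0.51 ± 0.37, edgeR adjusted p = 0.753, and 0.0644 with the block).

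Among the polymerases, Pola1 (Entrez gene 18968, chromosome X, 93304766 to 93632387) had 13.5, 15.7 and 23.1 CPM in old cells, against 20.9, 23.8 and 32.3 CPM in young cells. The groups overlapped through old replicate 3. Its log2 fold change was -0.56 ± 0.25 (edgeR adjusted p = 0.421, and 0.00973 with the block), and -0.37 without young replicate 3. Pold1 (Entrez gene 18971, chromosome 7, 44532744 to 44548815) had 369.8, 217 and 292 CPM in old cells, against 745, 324 and 340.3 CPM in young cells. Replicate 1 was the highest of both ages. Its log2 fold change was -0.68 ± 0.32 (edgeR adjusted p = 0.444, and 0.0221 with the block), and -0.16 without young replicate 1. With a date pair left out, the blocked adjusted p in edgeR went up to 0.129.

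Of the licensing genes, Mcm7 (Entrez gene 17220, chromosome 5, 138164583 to 138172111) had 38.5, 49.03 and 57.3 CPM in old cells, against 58.8, 62.7 and 73.7 CPM in young cells. The groups were apart, and the log2 fold change was -0.43 ± 0.22 (edgeR adjusted p = 0.527, and 0.0192 with the block). Cdt1 (Entrez gene 67177, chromosome 8, 122568015 to 122573130) had 81.4, 95.2 and 99.8 CPM in old cells, against 154, 102 and 102 CPM in young cells. The gap rested on young replicate 1, since the other libraries lay close together. Its log2 fold change was -0.38 ± 0.19 (edgeR adjusted p = 0.499, and 0.151 with the block), with -0.14 without young replicate 1 and -0.07 without both libraries of 24 March. Mcm5 had 36.9, 71.96 and 73.6 CPM in old cells, against 61.8, 76.7 and 91.99 CPM in young cells. Old replicate 1 was far below the rest (log2 fold change -0.34 ± 0.27, edgeR adjusted p = 0.783, and 0.0489 with the block). Without that library the fold change was -0.08, and without young replicate 3 it was -0.19.

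Pcna had 48.6, 58.4 and 59.7 CPM in old cells, against 106, 60.5 and 80.2 CPM in young cells. The groups were apart by a narrow margin (log2 fold change -0.57 ± 0.32, edgeR adjusted p = 0.594, and 0.121 with the block). It was -0.32 without young replicate 1 and -0.25 without both libraries of 24 March. Lig1 had 25.4, 31.8 and 45.1 CPM in old cells, against 47.7, 43.5 and 53.4 CPM in young cells. Only old replicate 3 reached the young range (blocked log2 fold change -0.53 ± 0.14, edgeR adjusted p = 0.0323). Ccne1 had 41.3, 21.3 and 26.5 CPM in old cells, against 35.6, 20.7 and 21.7 CPM in young cells. It was the only one of the 35 that was higher in the old library of all 3 dates (22.8% of all genes were), and it did not pass (log2 fold change 0.20 ± 0.28, edgeR adjusted p = 0.935, and 0.398 with the block). Without old replicate 1 its fold change turned to -0.12.

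The other genes did not pass between old and young cells with or without the block. Rrm2 had 20.8 ± 8.08 CPM in old cells and 28.8 ± 15.2 CPM in young cells, and Tyms had 3.56 ± 0.756 CPM in old cells and 4.61 ± 2.40 CPM in young cells (SD, n = 3 each). Mcm10 had 4.74 ± 1.26 CPM in old cells and 6.12 ± 2.46 CPM in young cells, and Cdc6 had 4.68 ± 2.38 CPM in old cells and 6.69 ± 3.51 CPM in young cells. Old and young libraries overlapped in all 4 of these genes. Orc1, Mcm6, Gins1, Rfc3 and Fen1 had fold changes above 0, of which the highest was that of Gins1 (0.23 ± 0.41). By role, the median log2 fold change was -0.49 for the G1/S regulators, -0.41 for polymerases and primase, -0.27 for licensing, -0.27 for chromatin duplication and -0.21 for nucleotide synthesis. It was -0.07 for helicase activation and -0.05 for the clamp, loader and Okazaki fragment genes.

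The counts in the other lists are to be read against 7.03% of all genes that fell and 7.89% that rose with age under the block, and a median of -0.04. Here 7 of 49 G2 and mitosis genes fell (median -0.34 by group), with Foxm1, a mitotic transcription factor, at -0.97 (edgeR adjusted p = 0.000908). Of 44 other replication genes 4 fell (median -0.06), with Pole4, a small polymerase epsilon subunit, at -0.53 (edgeR adjusted p = 0.00365), and Dnmt1, the maintenance methyltransferase that UHRF1 recruits, at -0.47 (edgeR adjusted p = 0.00494). Of 26 other nucleotide synthesis genes 3 fell and 1 rose, among them Samhd1, which breaks down deoxynucleotides, at -0.47 (edgeR adjusted p = 0.0136). Of 30 E2F, RB and G1/S regulators 4 fell and 3 rose. The rises included the CDK inhibitors Cdkn2a, with 2.20, 3.23 and 0.753 CPM in old cells against 0.246, 0.171 and 0.330 CPM in young cells, and Cdkn2b, both at low counts. Of 22 checkpoint and fork repair genes 3 fell, and of 14 quiescence genes 3 fell. In edgeR by group 0 genes of these lists passed, with at most 3 lower per list at an unadjusted p under 0.05, and DESeq2 called 1 quiescence gene lower and 0 of the others.

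Markers of other cells also differed with age, and their part in the values of the 35 genes was not tested. Summed T cell markers had 40.3 to 76.2 CPM in old cells, against 35.9 to 71.97 CPM in young cells, and these sums overlapped. Gene by gene, however, 6 of 7 had every old library above every young one (median log2 fold change of the 7, 2.93). Of the 7, 5 rose with the block and 2 in edgeR by group. Monocyte and macrophage markers had 59.6 to 236 CPM in old cells, against 29.6 to 155 CPM in young cells. Of these, 9 of 9 had fold changes above 0, 6 rose with the block and 1 rose in edgeR by group. NK cell markers had 2.81 to 5.00 CPM in old cells, against 0.300 to 0.989 CPM in young cells. Stroma markers had 15.3 to 129 CPM in old cells, against 2.05 to 10.8 CPM in young cells. The NK cell and stroma sums were higher in every old library. In each list, 3 of 3 tested genes rose with the block and 1 in edgeR by group. Precursor B cell markers had 22.6 to 57.8 CPM in old cells, against 47.98 to 118 CPM in young cells. Of the 9, 5 fell with the block and 1 in edgeR by group. Cd93 had 13.7, 9.52 and 13.01 CPM in old cells, against 29.3, 31.8 and 36.1 CPM in young cells, and fell in edgeR by group as well (log2 fold change -1.43, adjusted p = 0.00514).

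Granulocyte markers had 110.2 to 696 CPM in old cells, against 26.98 to 792 CPM in young cells, with replicate 3 the highest of both ages. Erythroid markers had 134 to 317 CPM in old cells, against 146 to 479 CPM in young cells, and progenitor markers 23.9 to 54.9 CPM in old cells, against 39.3 to 250.1 CPM in young cells. Of the 4 progenitor genes, however, 3 had fold changes above 0 (median 1.37 on the log2 scale). With the block 1 of them rose and 1 fell, and 1 rose in edgeR by group. Germinal centre markers had 75.8 to 96.2 CPM in old cells, against 108 to 166 CPM in young cells, which were apart. Of the 6 genes, however, 4 had fold changes above 0 (median 0.87 on the log2 scale) and 2 fell with the block. Plasma cell markers had 349 to 1581 CPM in old cells, against 402 to 709.5 CPM in young cells, and overlapped.

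The libraries of 24 March were set against the other wild-type libraries of the same age, which was not done for the other dates. Many genes differed, and the replication genes among them did not all move one way. In the old library of that date, Mcm2, Mcm3, Mcm4, Mcm6, Fen1 and Rrm1 had 0.300 to 0.487 times the mean of the other 2 old libraries, and in the young library 0.415 to 0.616 times that of the other 2 young ones. Prim1, Tk1 and Ccne1 were higher instead, with ratios of 1.73 to 2.0 in the old and 1.68 to 2.78 in the young library. Tk1 had 58.1, 24.9 and 33.1 CPM in old cells, against 78.1, 26.6 and 29.7 CPM in young cells, and Fen1 had 14.7, 48.98 and 48.97 CPM in old cells, against 19.4, 41.9 and 48.5 CPM in young cells. Replicate 1 was thus the highest of both ages for Tk1 and the lowest of both for Fen1. In both ages 20.2% of all genes had a ratio under 0.667 and 17.4% had one over 1.5. The 6 low and 3 high replication genes are all those of the 35 past the same limits, and neither share was above that of all genes. Without both libraries of 24 March the median of the 35 genes between old and young cells was -0.20 on the log2 scale, and 0 passed in edgeR by group.

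**Figure D4:**
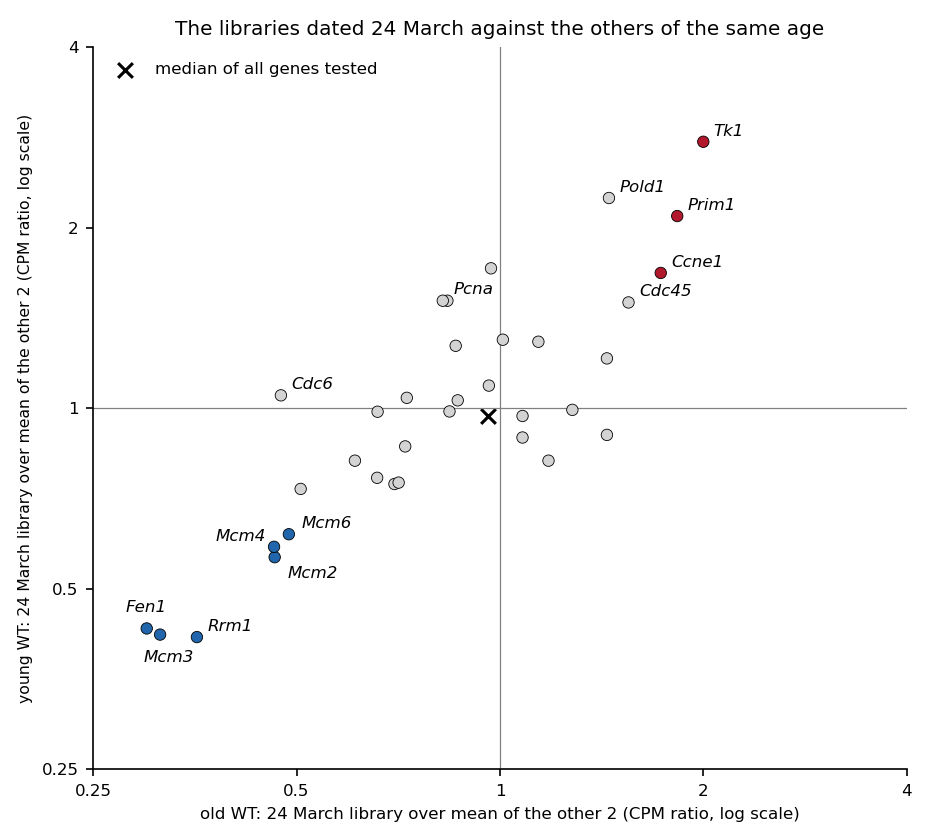
Ratio of the level (CPM) in the 24 March library to the mean of the other 2 libraries of the same age, for old (x axis) and young wild type (y axis), on log scales, with 1 point per replication gene and the median of all genes as a cross. Blue genes were under 0.667 and red genes over 1.5 in both ages.

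The difference between the age effect and the Bax effect was tested directly, as the log2 fold change of old over young minus that of resistant over sensitive. In edgeR by group 0 of the 35 genes passed, against 0.25% of all genes, with Uhrf1 and E2f1 at an unadjusted p under 0.05 (5.02% of all genes in that direction). DESeq2 called 0, against 1.58% of all genes. With the date block the difference passed for 4 genes, against 3.51% of all genes in that direction. These were Uhrf1 at 1.10 ± 0.22 (edgeR adjusted p = 0.0161), E2f1 at 1.17 ± 0.23 (0.0156), Chaf1a at 1.02 ± 0.25 (0.0357) and Mcm10 at 1.75 ± 0.44 (0.038). All 4 were positive, that is, the fold change was further below 0 between resistant and sensitive cells than between old and young cells. Between 0 and 4 of the 35 passed when a date pair was left out. For E2f2 the difference was 0.22 ± 0.23 by group (edgeR adjusted p = 1).

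For context the Bak-deficient groups were set against young wild-type cells. Both comparisons share the young libraries with each other and with the age comparison, each shares its Bak-deficient group with the comparison of resistant and sensitive cells, and dates differ throughout, so date and genotype cannot be told apart. Between resistant and young cells 0 of the 35 passed in edgeR by group, against 0.162% of all genes. At an unadjusted p under 0.05, 13 were lower, against 3.89% of all genes. DESeq2 called Uhrf1 and E2f1 lower, against 0.54% of all genes. The log2 fold change was -1.90 ± 0.33 for Uhrf1 (edgeR adjusted p = 0.0502, DESeq2 adjusted p = 1.76e-05) and -1.43 ± 0.38 for E2f1 (edgeR adjusted p = 0.31, DESeq2 adjusted p = 0.0397). In 10 genes every resistant library was below every young one, against 6.22% of all genes, and the median of the 35 was -0.30.

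Between sensitive and young cells 0 of the 35 passed in edgeR, 0 had an unadjusted p under 0.05 and DESeq2 called 0. Of all genes edgeR called 0.0%, 2.73% had an unadjusted p under 0.05 and DESeq2 called 0.0687%. The median log2 fold change was 0.17, and 29 of the 35 were above 0, against 48.7% of all genes. Uhrf1 was at 0.02 ± 0.31, E2f1 at 0.25 ± 0.37 and E2f2 at 0.10 ± 0.16. The standard errors of the 35 genes were 0.16 to 0.56 on this scale, so a p above the threshold does not show that the levels were alike. The median turned to -0.05 without sensitive replicate 3.

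**Figure D5:**
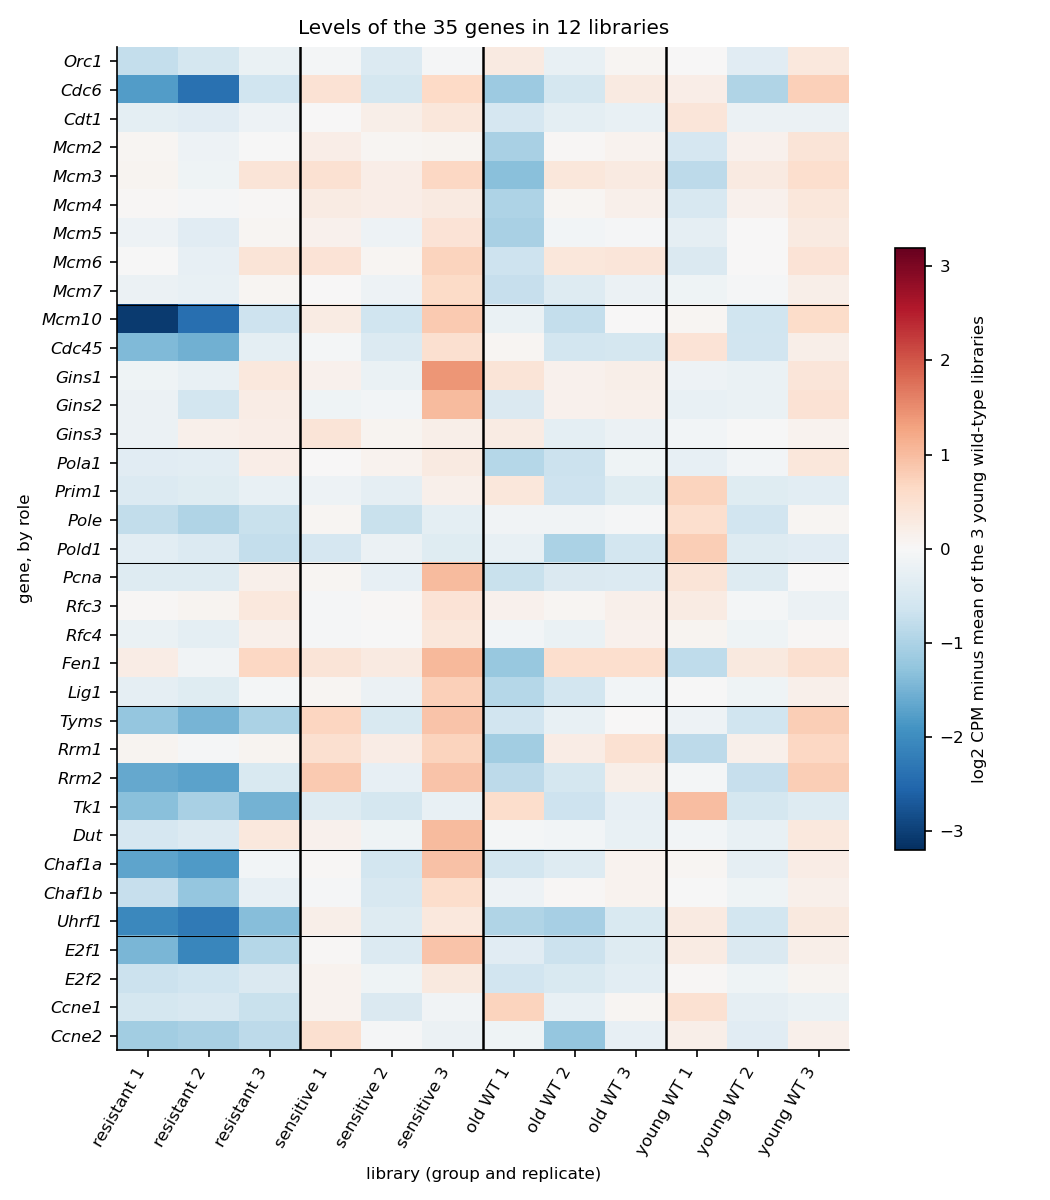
Level of each of the 35 genes (rows, by role) in each library (columns), as log2 CPM minus the mean log2 CPM of the 3 young wild-type libraries. Resistant libraries 1 and 2 are the lowest in Mcm10, Cdc6, Chaf1a, Uhrf1 and E2f1, sensitive library 3 is high in many rows, and the 24 March libraries (old WT 1 and young WT 1) are low in Mcm2, Mcm3, Mcm4, Fen1 and Rrm1.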

How the data were processed

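RNA from 12 libraries was measured by sequencing of polyadenylated RNA (TruSeq RNA v2, per the labels' protocols). The deposited table holds whole-number read counts per gene, made by the authors with Subread and featureCounts on mm10, per the submitters' processing notes. The sources used here do not give versions, annotation or strand setting. All 12 columns were used, and 0 were left out. Genes were kept by edgeR's filterByExpr (minimum 10 reads), which left 13592 of 27179. Levels are CPM after TMM scaling. Levels per kilobase use the longest principal transcript of GENCODE vM21. The test was edgeR's quasi-likelihood test (edgeR 4.0.16, limma 3.58.1, R 4.3.3) over all 12 libraries by group, with 8 residual degrees of freedom, and Benjamini-Hochberg adjustment over all genes tested. The scripts were tested on simulated data. DESeq2 1.42.0, other scaling, no filter, the compared libraries alone, left-out libraries and a block were tried as alternatives.

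Same-numbered libraries share a collection date, per the labels. Their deviations from the group means correlated at 0.745, 0.512 and 0.555 in wild-type and at 0.284, 0.325 and 0.487 in Bak-deficient cells. Between different dates they correlated at -0.618 to 0.373 in wild-type and at -0.383 to 0.211 in Bak-deficient cells. Deviations from a mean of 3 libraries sum to 0, so these values are not independent of each other. The labels give the pairing, and the fit with that block (4 residual degrees of freedom) is given beside the test by group. In the test by group, p-values rest on the spread among the 3 biological replicates within each group, estimated jointly over all 12 libraries. With the block they rest on how alike the differences within dates were, estimated jointly over the wild-type and Bak-deficient pairs.

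The 35 genes and the other lists were chosen with earlier results of these data known. Values in every library are given for genes past the threshold by group, for the 6 with the smallest p in each of the age and Bax comparisons, and for Pcna, Mcm5, E2f1 and Ccne1. Other members shown by library were chosen after their values were seen. Of each other list up to 3 genes with the smallest p are named.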

Additional observations from a re-analysis of the deposited data

How the results depend on the processing

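Without the date block, the test by group called 0 of the 35 genes in every comparison, and library factors by RLE or the compared libraries alone changed none of these counts. Between resistant and sensitive cells the count of lower genes was 5 with DESeq2, 1 with no filter on low counts and 12 with the replicate block, and 6, 8 and 6 with the block but without date pair 1, 2 or 3. Between old and young cells it was 7 with the replicate block, and 3, 7 and 6 without pair 1, 2 or 3, where 2.35%, 4.22% and 6.23% of all genes were called lower. Between resistant and young cells it was 2 with DESeq2, 1 with no filter and 0 to 1 with 1 library left out (1 without young replicate 2). For the age effect minus the Bax effect it was 4 with the replicate block, 3, 2 and 2 without wild-type pair 1, 2 or 3, and 0, 4 and 2 without Bak-deficient pair 1, 2 or 3. The fits without a date pair were added after the data were seen. The cause of these differences was not tested. Between old and young cells, leaving out 1 date pair took the blocked adjusted p in edgeR up to 0.256 for Mcm5 and 0.105 for Mcm7. For Pcna it took that p down to 0.0382.

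Of the fold changes of named genes under the alternatives, 236 kept their direction and side of the threshold, 48 passed it only under the alternative and 1 reversed. This was Ccne1 between old and young cells, at -0.12 without old replicate 1 (-0.12 to 0.51 over left-out libraries), and the cause was not tested. The share of genes with E2F letters was 30.0% in the 200 bases before the start, a window that leaves out the bases after it. The matches of Mcm3, E2f2, Cdt1, Lig1 and Pold1 all lay after the start. Tyms, Mcm10, Cdc6 and Ccne2 stood at a few CPM, with as few as 10 reads of Mcm10 in a library, so counting error weighs more on them than on the genes with higher counts.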
